A study of Mus musculus with 82 samples.

Results

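The Eomes-GFP (EoGFP) peak list held 30129 peaks on assembled mouse chromosomes. Of these, 3301 (11.0%) overlapped a peak of the Eomes-VP16 (EoVP16) list by at least 1 bp and overlapped no peak of the Eomes-V5 (EoV5) list or the Brachyury-GFP (BraGFP) list. These 3301 regions were selected on the presence or absence of a peak in each list, so their overlaps describe the selection and are not a result. All 4 constructs were induced with doxycycline in embryoid bodies, aggregates of differentiating mouse embryonic stem cells, of A2lox.Cre cells that carried the dKO genotype, a double knockout of Eomes and Brachyury, so that neither endogenous factor was present in any group, and Activin A at 30 ng/ml was given up to day 5. The titles name the groups dKO+EoGFP and dKO+BraGFP with 2 libraries each, precipitated with an antibody to GFP, and dKO+EoV5 and dKO+EoVP16 with 1 library each, both precipitated with an antibody to V5. The study's title concerns how Eomes and Brachyury act on exit from pluripotency and on germ-layer segregation through chromatin. Each construct gave a single deposited peak list, so no difference below has a replicate check, and every interval covers counting error over peaks or genes only. The constructs were expressed from doxycycline, not from the Eomes or Brachyury locus, and whether each line is 1 clone is not given in the sources used here.

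Eomes and Brachyury are T-box transcription factors, whose shared DNA-binding domain recognises a short sequence with the half-site GTGTGA. In the gastrulating mouse embryo Eomes is required for definitive endoderm and anterior mesoderm, and Brachyury for posterior mesoderm and axial elongation. VP16 is a strong activation domain from a herpes simplex virus protein that recruits the general transcription machinery, and V5 is a short epitope tag. Active promoters of broadly expressed genes are usually rich in CpG, often lack a TATA box, and often carry sites for ETS, NRF1, YY1 and SP/KLF factors.

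The selection had 2 measured edges. The lowest EoVP16 pileup among the 3301 regions, meaning the number of overlapping fragments at the peak summit, was 36, which is also the minimum of that deposited list. The pileup given for a region is that of the EoVP16 peak overlapping it, and for 103 of 3301 regions (3.12%, 95% Wilson interval 2.58 to 3.77%) that summit lay outside the region. The smallest overlap with an EoVP16 peak was 233 bp, and the median overlap covered 92.8% of the region. The regions closest to an EoV5 peak without touching it lay 49 bp away at Pdcd5, 66 bp away near Raly, a gene for an RNA-binding protein, and 87 bp away at Tada1, a gene for a subunit of a histone acetyltransferase complex. Just outside the selection, the EoGFP and EoVP16 peaks with the smallest overlap with EoV5 shared 171 bp, 185 bp and 225 bp with it, and their nearest coding genes were Atrnl1, Zfp963 and Rtn4rl2. Their EoV5 pileups were 165, 330 and 69 fragments. The lowest EoV5 pileup in the deposited list was 61, so a region without an EoV5 peak may still hold fewer fragments than that. The median distance from a region to the nearest EoV5 peak was 15460 bp (quartiles 6046 and 33969 bp), and 704 of 3301 (21.3%, 95% Wilson interval 20.0 to 22.8%) had an EoV5 peak within 5 kb. The median distance to the nearest BraGFP peak was 20750 bp. Most of the regions therefore stood apart from an EoV5 or BraGFP peak, and 162 lay within 1 kb of EoV5 and 110 within 1 kb of BraGFP.

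Promoters of 8 genes with a region over the start are shown because their letters carry the sequence comparison made further on. Each line gives the 120 bases just before the start of transcription, 5′ to 3′ on the strand of the gene, from RefSeq with coordinates on GRCm38.p6. Capitals mark a match to the ETS letters CCGGAAG or to the T-box half-site GTGTGA, on either strand. The genes were picked after their values were seen, among genes of the lists used here with a single start in the table and a match in these bases.
Mrps22, chr9:98601680-98601799, minus strand: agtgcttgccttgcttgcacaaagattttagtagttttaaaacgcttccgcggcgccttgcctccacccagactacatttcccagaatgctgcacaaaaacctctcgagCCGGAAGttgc
Mrpl53, chr6:83108988-83109107, plus strand: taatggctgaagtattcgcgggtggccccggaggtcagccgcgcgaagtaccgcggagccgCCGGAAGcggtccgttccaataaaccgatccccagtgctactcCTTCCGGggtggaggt
Polr2j, chr5:136116571-136116690, plus strand: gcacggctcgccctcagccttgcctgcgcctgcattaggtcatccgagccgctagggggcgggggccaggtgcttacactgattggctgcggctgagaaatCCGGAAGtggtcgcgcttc
Psmc1, chr12:100110082-100110201, plus strand: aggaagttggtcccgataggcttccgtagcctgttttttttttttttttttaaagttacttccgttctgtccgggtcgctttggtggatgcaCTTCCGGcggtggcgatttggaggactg
Snrpb2, chr2:143062949-143063068, plus strand: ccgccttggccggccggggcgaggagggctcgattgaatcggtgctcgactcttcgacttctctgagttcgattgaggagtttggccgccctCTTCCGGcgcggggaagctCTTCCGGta
Supt16, chr14:52197240-52197359, minus strand: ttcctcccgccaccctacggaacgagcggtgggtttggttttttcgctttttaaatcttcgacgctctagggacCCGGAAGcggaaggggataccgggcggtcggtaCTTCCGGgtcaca
Sf3b6, chr12:4817488-4817607, plus strand: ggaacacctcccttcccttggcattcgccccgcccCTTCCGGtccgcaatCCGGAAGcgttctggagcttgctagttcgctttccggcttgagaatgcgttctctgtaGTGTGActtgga
Rps15a, chr7:118116148-118116267, minus strand: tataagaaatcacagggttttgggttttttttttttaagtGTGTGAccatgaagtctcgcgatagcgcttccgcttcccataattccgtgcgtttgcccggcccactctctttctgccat
Mrps22 and Mrpl53 encode proteins of the mitochondrial ribosome, Polr2j a subunit of RNA polymerase II, Psmc1 an ATPase subunit of the proteasome, Snrpb2 and Sf3b6 proteins of the spliceosome, Supt16 a subunit of the FACT histone chaperone and Rps15a a protein of the cytosolic ribosome. In Mrps22 the ETS match began 11 bases before the start, and in Polr2j 19 bases before it. Mrpl53, Snrpb2, Supt16 and Sf3b6 each held 2 ETS matches. Rps15a held no ETS match in these bases, and its half-site began 80 bases before the start. Sf3b6 held both kinds, with its half-site 12 bases before the start. The EoVP16 pileups at these genes were 46 at Mrps22, 48 at Mrpl53, 92 at Polr2j, 66 at Psmc1, 54 at Snrpb2, 57 at Supt16, 49 at Sf3b6 and 54 at Rps15a. These 8 promoters spanned the middle and upper part of the pileups of the set, whose quartiles were 45 and 61.

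The regions lay at gene ends more often than EoGFP peaks as a whole. The midpoint lay no more than 1 kb from an end of a coding gene, at either side, in 1809 of 3301 regions (54.8%, 95% Wilson interval 53.1 to 56.5%), against 27.7% of all EoGFP peaks. A further 825 lay elsewhere inside a coding gene and 667 (20.2%) outside any. EoGFP peaks that overlapped EoVP16 and EoV5 and no BraGFP peak, 10924 in number, lay at gene ends in 23.8% of cases, 31.0 percentage points lower (95% Newcombe interval of the difference 29.1 to 32.8). EoGFP peaks in no other list, 1458 in number, lay at gene ends in 13.1% of cases, 41.7 points lower (interval 39.2 to 44.1). EoGFP peaks with EoV5 alone had the lowest share of the 8 combinations, 3.75% of 6294. In these lists, EoGFP peaks that share a peak with EoVP16 and not with EoV5 were mostly at gene ends, and those that share one with EoV5 and not with EoVP16 rarely were.

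**Figure D1:**
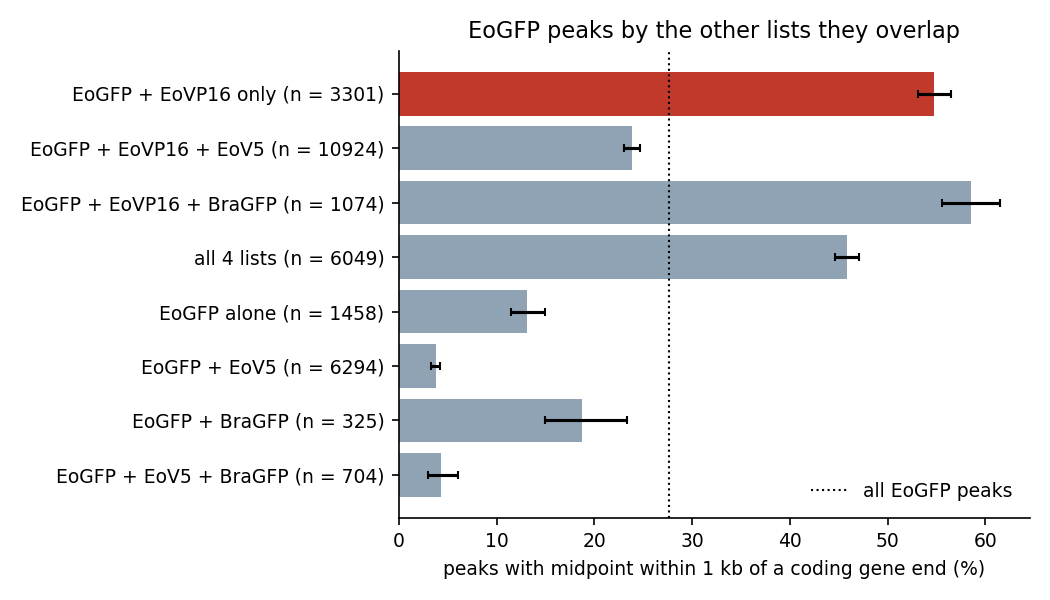
Share of EoGFP peaks whose midpoint lies within 1 kb of a coding gene end (x axis, percent), for the 8 combinations of the other lists they overlap (rows, with the number of peaks). Error bars are 95% Wilson intervals and the dotted line is the share over all EoGFP peaks, 27.7%; the 3301 regions (red) stand at 54.8% and peaks with EoV5 alone at 3.75%.

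Overlap with BraGFP went with a high gene-end share, with or without EoV5, where EoVP16 was present. EoGFP and EoVP16 peaks that also overlapped BraGFP and not EoV5 lay at gene ends in 58.6% of 1074 cases, so the 3301 regions were 3.76 points below them (interval of the difference -7.14 to -0.345). Peaks in all 4 lists lay at gene ends in 45.8% of 6049 cases, and the 3301 regions were 8.96 points above them (interval 6.84 to 11.1). The 3 combinations with EoVP16 and a high gene-end share ranged from 45.8% to 58.6%, against 23.8% of peaks with EoVP16 and EoV5 alone.

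The gene end was nearly always the start of transcription. Strand was known from the promoter table for the gene at 1462 of the 1809 gene-end regions, and in 1400 of these (95.8%, 95% Wilson interval 94.6 to 96.7%) the end was a start. A coding start of the promoter table lay within 1 kb of the midpoint in 1566 of 3301 regions (47.4%), and of these 146 (9.32%, interval 7.98 to 10.9%) had starts of 2 genes on opposite strands. The share with opposed starts was 8.50% in EoGFP, EoVP16 and EoV5 peaks without BraGFP, inside that interval, and 12.1% in peaks of all 4 lists. In all, 2072 of 21883 coding genes (9.47%) had one of the regions at an end, and 287 regions had ends of at least 2 coding genes within 1 kb. For comparison, 41.1% of coding genes had any EoGFP peak at an end.

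Where an EoVP16 summit lay near a coding start, it mostly sat close to it. Of the 1632 regions with a summit within 2 kb of a coding start, 1181 (72.4%, 95% Wilson interval 70.1 to 74.5%) had it within 200 bp. The median position was 1 bp upstream of the start, a value of -1 (quartiles -126 and 89 bp, in the direction of transcription). In EoGFP, EoVP16 and EoV5 peaks without BraGFP, 56.1% of 2542 summits near a start were within 200 bp of it (interval 54.2 to 58.1%), with quartiles of -193 and 133 bp. In peaks of all 4 lists the share was 63.2%. The 1632 summits near a start were thus packed more tightly around it than those of these 2 other classes. Their sides were even, with 49.4% of summits downstream. The class with EoVP16 and BraGFP and without EoV5 was not measured here, so tight packing may not be particular to the regions.

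**Figure D2:**
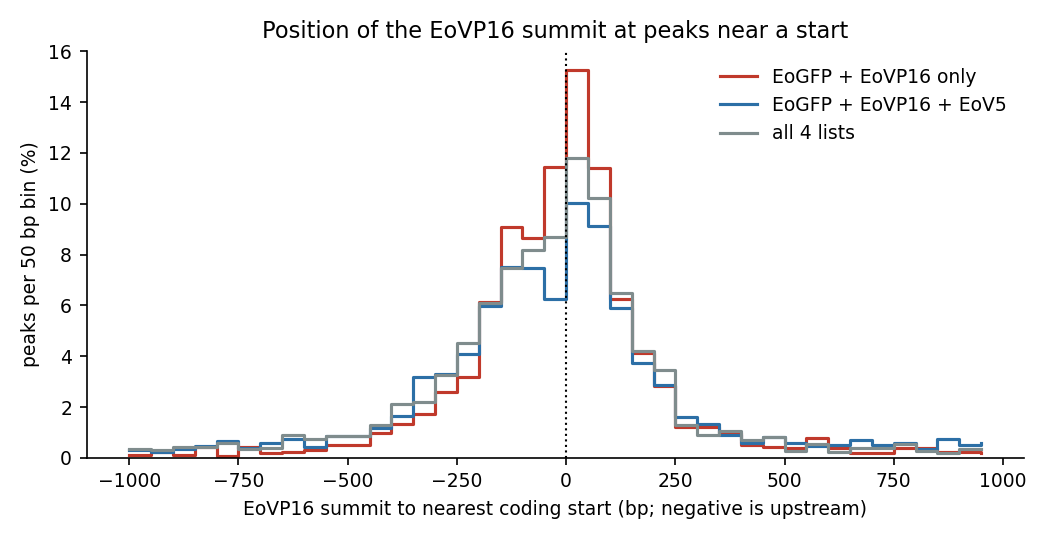
Distance from the EoVP16 summit to the nearest coding start (x axis, bp, negative upstream) against the percent of peaks in each 50 bp bin (y axis), for peaks with a summit within 2 kb of a start; bins beyond 1 kb are not drawn. The 3301 regions (red) have the tallest centre, with 72.4% of these summits within 200 bp, against 56.1% in peaks that also overlap EoV5 (blue) and 63.2% in peaks of all 4 lists (grey).

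The height of the EoV5 peak moved with gene ends even where EoV5 was present. Among the 10924 EoGFP, EoVP16 and EoV5 peaks without BraGFP, the median EoV5 pileup was 82 at gene ends and 154 elsewhere. An EoV5 pileup of 80 or less, close to the minimum of that list, was found at 47.8% of those gene-end peaks and at 14.2% of the others. By quartile bins of EoV5 pileup, from lowest to highest, their gene-end share was 50.4%, 27.5%, 11.3% and 5.46%. The lowest bin, with EoV5 pileups from 61 to 84, came near the 54.8% of the 3301 regions, which have no EoV5 peak. Over whole lists, 16.0% of EoV5 peaks and 27.9% of EoVP16 peaks lay at gene ends. The part of the EoV5 list's minimum in the make-up of the 3301 regions was not tested. Requiring an EoV5 pileup of at least 100 moved their number to 7241 and their gene-end share to 49.8%. By construction that choice can only add regions, and it holds no values for EoV5 signal under 61 fragments.

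Among EoGFP and EoVP16 peaks without BraGFP, 41.0% of 4411 at gene ends and 15.2% of 9814 elsewhere had no EoV5 peak. This is the selection read from the other side and is given as a description. The gap was also seen within quartile bins of EoVP16 height, a split made after the data were seen. The bins match height only in part. In the highest bin the median pileup was 88 at gene ends and 99 elsewhere, and the median width 1261.5 and 879 bp. In the lowest quartile bin of EoVP16 pileup, 36 to 48 fragments, 65.8% of gene-end peaks and 22.5% of others had no EoV5 peak. In the highest bin, 77 fragments and up, the shares were 10.3% and 2.54%. Among peaks 800 to 1200 bp wide the shares were 48.2% and 11.3%. The share without EoV5 fell with EoVP16 height in both locations apart from the step from the lowest to the second bin elsewhere, 22.5% and 22.9%.

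**Figure D3:**
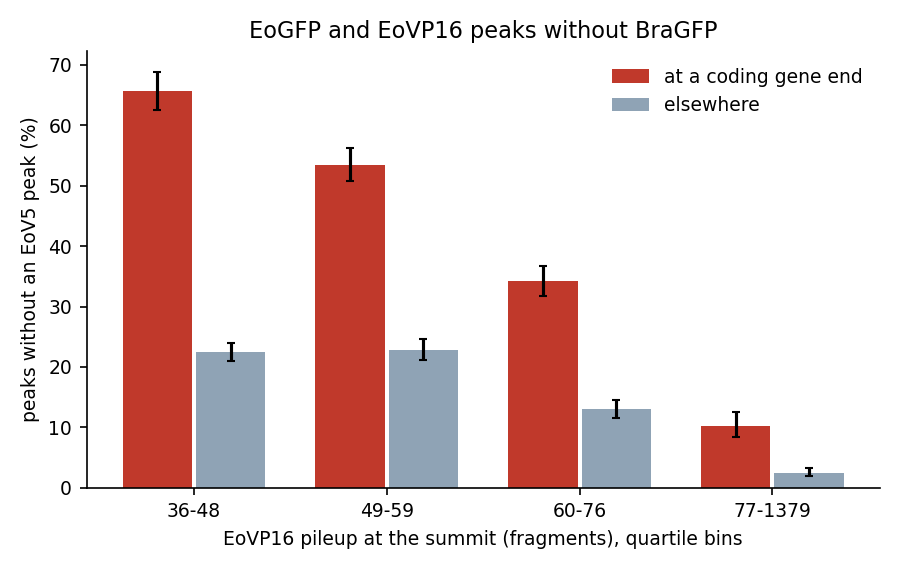
EoGFP and EoVP16 peaks without BraGFP, split into quartile bins of EoVP16 pileup (x axis, fragments at the summit) and by location (red, within 1 kb of a coding gene end; grey, elsewhere), with the percent that had no EoV5 peak (y axis) and 95% Wilson intervals. In each bin the gene-end share is above the other, from 65.8% against 22.5% in the lowest to 10.3% against 2.54% in the highest.

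The regions were of ordinary width and had the lowest median EoVP16 height among the classes with EoVP16. Their median EoVP16 pileup was 53 fragments (quartiles 45 and 61, highest 143). The median was 59 in EoGFP, EoVP16 and BraGFP peaks without EoV5, and 63 in those with EoV5 and without BraGFP. It was 83 in peaks of all 4 lists and 65 over all EoGFP peaks with an EoVP16 peak. The authors' fold enrichment at the summit had a median of 8.86 (lowest 4.22, highest 24.1). A pileup of 80 or more was reached by 3.54% of gene-end regions and 3.69% of the others, and by 25.8% of gene-end peaks that also overlapped EoV5. Their median width was 893 bp (quartiles 648 and 1229), close to 884 bp in peaks that also overlapped EoV5, and above the 685.5 bp of EoGFP peaks in no other list. Within the set, gene-end regions were wider than the others, with medians of 1052 and 701 bp, while their EoVP16 medians of 54 and 50 lay within the quartiles of each other.

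The 10 regions with the highest EoVP16 pileup had no coding gene end within 1 kb, so their nearest genes are given as chosen after their values were seen. The highest, 143 fragments (exact 95% Poisson interval 121 to 168), lay 51.7 kb from Glrp1. The next, 120 fragments, lay 22.8 kb from Ypel5. Others lay inside Capn2, a calpain protease gene (110), inside Amotl1, which encodes an angiomotin-like protein of cell junctions (109), and 4.08 kb from Tenm4, a teneurin gene (104). At 2 more the summit lay outside the region, by 794 bp inside Cxxc5 (116) and by 2540 bp inside Casz1 (104), which encodes a zinc finger transcription factor. The summit of the Casz1 entry was 30 bp upstream of a coding start (-30), so that height belongs to a summit at a start. The highest regions at a gene end were at Cops4, a subunit of the COP9 signalosome, with 103 fragments (interval 84.1 to 125), at Ahdc1 and Ntmt1 with 102 each, and at Bud31, a splicing factor, and Psmd9, a proteasome assembly factor, with 99 each. The Poisson intervals of the 143 at Glrp1 and the 103 at Cops4 overlapped at their edges, and whether these heights differ was not tested.

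The 5 widest regions lay at or in Plec (4530 bp), which encodes the cytoskeletal linker plectin, Hs3st3b1 (4314 bp), a heparan sulfate sulfotransferase gene, Add3 (3498 bp), Ppp1r13l (3410 bp) and Ttll12 (3065 bp). Their EoVP16 pileups were 73, 46, 59, 58 and 59, so the widest were not the highest. The 3 lowest, each with 36 fragments, lay 126 kb from Cibar1, inside Trpm3 and inside Tmem201. Those 3 were 337, 394 and 422 bp wide, below the lower quartile of the set.

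The regions were spread over the genome with a median of 241 kb between neighbours, and 152 of 3281 neighbouring pairs were within 10 kb. By chromosome their share of EoGFP peaks ran from 8.46% on chromosome 3 to 14.5% on chromosome 11, with 307 regions there. The X chromosome held 39 of 333 EoGFP peaks (11.7%) and the Y chromosome none of 7. Sptbn4, a spectrin gene on chromosome 7, had the most regions within 50 kb of its span, 7, followed by Niban2 with 6, and 23 named genes had 5. Most neighbours were therefore far apart on the scale of a gene.

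Gene families of basic cell machinery were common among the 2072 genes. The families were listed by symbol, and a family's share was read against 9.47% of all coding genes. Of 20 families, 15 had a higher share than that. Because families differ in how many of their genes carry any EoGFP peak at an end, each share was also taken of the genes with any EoGFP peak at an end, which is 23.0% over all genes, and 13 of 20 families lay above it. These counts cover all listed families and not those of basic machinery alone. Hox genes (50%, of 4 genes) and potassium channels (30.3%) lay above 23.0%, and Mediator (19.2%) and the DEAD and DEAH box helicases (17.5%) below it. The mitochondrial ribosomal proteins, which translate the respiratory chain subunits encoded in mitochondria, had a region at 26 of 78 genes (33.3%, 95% Wilson interval 23.9 to 44.4%). With EoVP16 pileups of 50 or more alone this was 16 of 78 (20.5%), against 6.35% of all coding genes. Its interval overlapped those of several families, such as the aminoacyl-tRNA synthetases (18.0 to 46.9%). Differences between families were not tested, so the families are not ranked. EoGFP, EoVP16 and EoV5 peaks without BraGFP lay at 9 of these 78 (11.5%), against 13.0% of all coding genes.

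Translation and protein turnover followed. The aminoacyl-tRNA synthetases, which charge tRNAs with amino acids, had a region at 11 of 36 genes (30.6%) and the cytosolic ribosomal proteins at 18 of 85 (21.2%). The translation initiation factors had one at 10 of 56 (17.9%) and the proteasome subunits at 11 of 39 (28.2%). Among genes with any EoGFP peak at an end, these shares were, in order, 37.9%, 31.0%, 24.4% and 35.5%. The share for the initiation factors was thus near the 23.0% of all genes. Peaks that also overlapped EoV5 lay at 6 of the 36 synthetase genes and at 20 of the 85 cytosolic ribosomal genes. So the ribosomes of the 2 compartments differed in this count, with 26 and 9 genes for the mitochondrial one and 18 and 20 for the cytosolic one; the difference was not tested. By highest EoVP16 pileup, the mitochondrial ones were Mrpl11 (76), Mrps5 (76) and Mrps16 (72), and the cytosolic ones Rpl41 (79), Rpl13a (72) and Rps14 (67). The region at Mrps5 also held an end of Zfp661, on the opposite strand. At the synthetases these were Pars2 (69), Farsa (61) and Nars2 (59), and at the proteasome Psmd9 (99), Psma4 (70) and Psmc1 (66). The initiation factors were Eif2b3 (78), Eif3m (65) and Eif2b2 (64).

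Transcription and RNA processing genes had regions too, with shares above and near that of all genes. A region lay at an end of 8 of 28 RNA polymerase subunit genes (28.6%), led by Polr2j (92), Polr2e (79) and Polr3c (76). It did so at 9 of 32 spliceosomal protein genes (28.1%), led by Srsf6 (63), Snrpa1 (59) and Srsf2 (54), where peaks with EoV5 lay at 4 of 32. Mediator, the complex that links activators such as VP16 to RNA polymerase II, had 5 of 30 genes (16.7%), among them Med9 (68), Med26 (66) and Med15 (49), and peaks with EoV5 also lay at 5 of 30. The DEAD and DEAH box helicases had 7 of 53 (13.2%), led by Ddx49 (88), Ddx41 (83) and Dhx37 (82). The intervals for Mediator (7.34 to 33.6%) and the helicases (6.55 to 24.8%) held 9.47%. Of the genes with any EoGFP peak at an end, a region lay at 30.8% of the RNA polymerase, 37.5% of the spliceosomal, 19.2% of the Mediator and 17.5% of the helicase genes, the last 2 below the 23.0% of all genes. The Wilson intervals of these 4 families overlapped one another, and differences between them were not tested, so their shares are not ranked.

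Mitochondrial, cell cycle and ubiquitin conjugation genes had regions as well, some with shares near those of all genes with an EoGFP peak. The respiratory complex I genes with symbols in Nduf, subunits and assembly factors together, had a region at 10 of 46 (21.7%), with Ndufa12 (65), Ndufb4 (65) and Ndufb10 (64). The Timm and Tomm genes, which encode the import machinery of mitochondria, had 7 of 25 (28.0%), with Timm50 (87), Tomm6 (85) and Tomm40l (69). The genes with symbols in Anapc or Cdc had 10 of 42 (23.8%), with Cdc6 (81), a licensing factor of DNA replication, Cdc42se2 (79) and Cdc34 (75), and 4 of 42 with peaks that also overlapped EoV5. The ubiquitin conjugating enzymes had 6 of 35 (17.1%), with Ube2m (92), Ube2b (74) and Ube2j2 (70). Among genes with any EoGFP peak at an end, the shares were 25.6% for complex I and 27.3% for the ubiquitin conjugating enzymes. They were 33.3% for the import genes and 34.5% for the Anapc and Cdc genes, against 23.0% of all genes.

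The receptor and keratin families had no region at a gene end. None lay at an end of the 1110 olfactory receptor genes (95% Wilson interval up to 0.345%), the 353 vomeronasal receptor genes or the 49 keratin genes. Any EoGFP peak lay at an end of 3, 3 and 7 of them, so these genes were sparse in the whole list. The Hox genes, which pattern the body axis, had 2 of 39, Hoxc13 (52) and Hoxd3 (37), of 4 with any EoGFP peak at an end. The core histone genes had 7 of 78 (8.97%), near the share of all genes, with H2ac18 and H3c14 at 1 shared region (85) and H3c3 (73), while peaks that also overlapped EoV5 lay at 18 of 78 (23.1%). The EoVP16 summits with these heights lay outside the regions, by 234 bp at H2ac18 and H3c14 and by 845 bp at H3c3. The potassium channel genes had 10 of 92 (10.9%), near the share of all genes, and 30.3% of those with any EoGFP peak at an end, led by Kcnd2 (71), Kcnj4 (70) and Kcns2 (67). The 394 zinc finger protein genes with symbols in Zfp had 53 (13.5%), led by Zfp7 (96), Zfp35 (76) and Zfp661 (76). Among zinc finger genes with any EoGFP peak at an end the share was 22.4%, near the 23.0% of all genes. Near-identical copies are common among the zinc finger, histone and receptor genes, and reads from copies can be shared or lost, whose part was not tested.

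**Figure D4:**
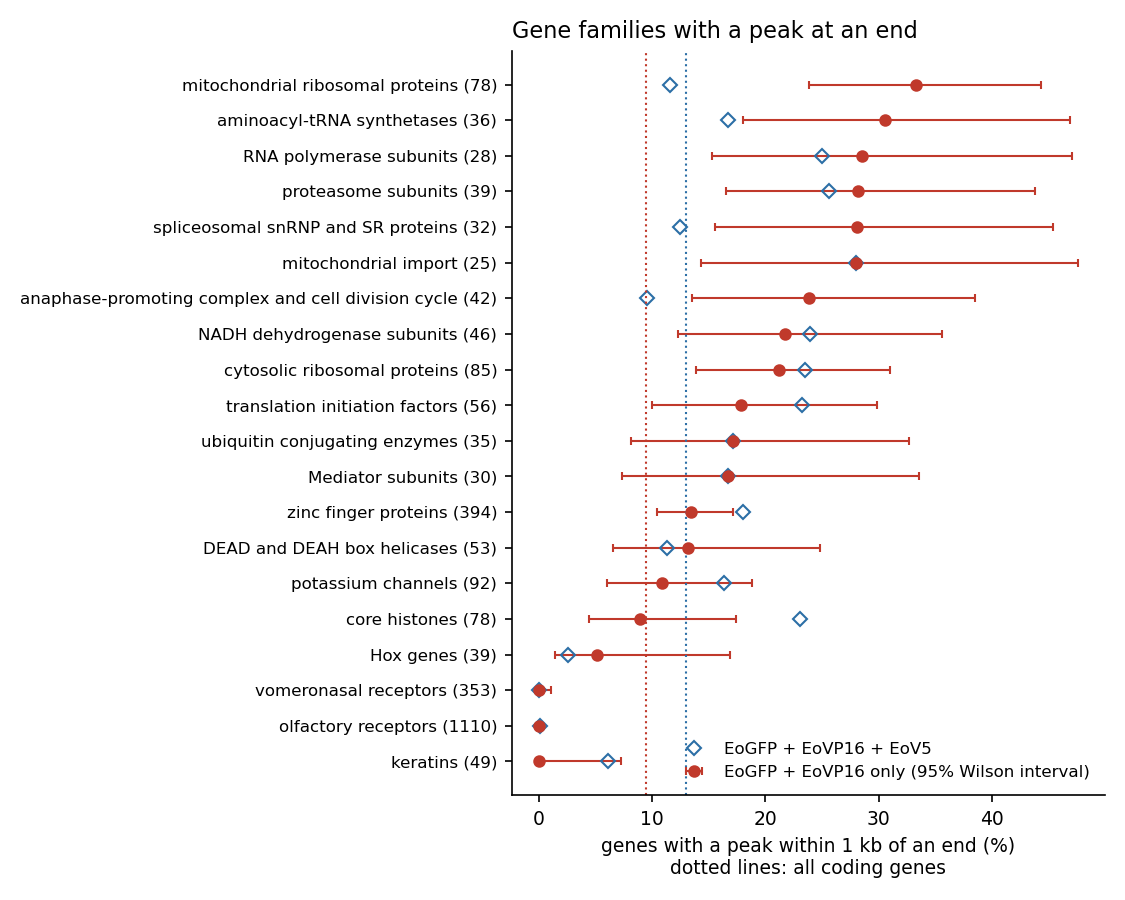
Share of genes in 20 families (rows, with the number of genes) that had a peak midpoint within 1 kb of an end (x axis, percent), for the 3301 regions (red circles, 95% Wilson intervals) and for EoGFP, EoVP16 and EoV5 peaks without BraGFP (blue diamonds). Dotted lines mark the shares over all coding genes, 9.47% and 13.0%; the mitochondrial ribosomal proteins stand at 33.3% and 11.5%, and the core histones at 8.97% and 23.1%. Shares are of all genes in a family; of genes with any EoGFP peak at an end, the 3301 regions lie at 38.8% of the mitochondrial ribosomal genes, against 23.0% over all genes.

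The developmental and regulatory lists had a share near that of all coding genes, and a lower one among genes with an EoGFP peak. These 13 lists hold genes of the streak, endoderm, mesoderm, pluripotency and neural ectoderm, of signalling pathways, of chromatin and of general transcription factors. Their 192 genes together had a region at an end of 14 (7.29%, 95% Wilson interval 4.39 to 11.9%), against 9.47% of all coding genes, and within 10 kb of an end of 33 (17.2%), against 17.1%. EoGFP, EoVP16 and EoV5 peaks without BraGFP lay at an end of 42 of the same 192 (21.9%, interval 16.6 to 28.2%), against 13.0% of all coding genes. Of the 109 listed genes with any EoGFP peak at an end, 12.8% had one of the 3301 regions there, against 23.0% over all genes. The lists with shares above 9.47% were FGF and ERK signalling with 3 of 17 genes (17.6%), general transcription factors associated with VP16 with 2 of 14 (14.3%), neural ectoderm with 2 of 15 (13.3%, and 6 of 15 within 10 kb) and Wnt signalling with 2 of 18 (11.1%). Their Wilson intervals, in order 6.19 to 41.0%, 4.01 to 39.9%, 3.74 to 37.9% and 3.10 to 32.8%, all held 9.47%. Among genes with any EoGFP peak at an end, their shares were 20%, 20%, 33.3% and 22.2%, against 23.0% over all genes. The definitive endoderm list had a region at 0 of 16 genes (95% Wilson interval up to 19.4%, which holds 9.47%), within 1 kb and within 10 kb, where peaks that also overlapped EoV5 lay at an end of 5. The epithelial-mesenchymal transition list had 0 of 14 at an end, where peaks with EoV5 lay at 5. The T-box family had 0 of 17 at an end. The chromatin list had 1 of 26, where peaks with EoV5 lay at 8.

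The 14 listed genes with a region at an end mostly had EoVP16 pileups below the median of the set. Mesp1, a transcription factor gene of early mesoderm, had 44 fragments at its end in a 1493 bp region on chromosome 7, with an EoV5 peak 2298 bp away and a BraGFP peak 2304 bp away. A second region near Mesp1, with 55 fragments, had an EoV5 peak 301 bp away. Lfng, which encodes a glycosyltransferase that modifies Notch, had 40 fragments, with the EoVP16 summit 114 bp upstream of a start (-114). Tfcp2l1, a pluripotency factor gene, had 44 fragments at -63 bp. The neural genes Pou3f1 and Irx3 had 46 and 40. Ctnnb1, which encodes β-catenin, the effector of Wnt signalling, had 65 fragments, and Tcf7, which encodes one of its DNA-binding partners, had 42. The summit of the EoVP16 peak at Tcf7 lay 66 bp outside the region. Acvr2b, an activin receptor gene, lay at a region 298 bp from an EoV5 peak, and the overlapping EoVP16 peak, of 58 fragments, had its summit 1504 bp outside that region. Map2k1, a kinase gene of the ERK cascade, had 66, and Fgf15, an FGF ligand gene, had 52. Smarcb1, a subunit of the BAF remodelling complex, had 45, Med15 had 49 and Supt16 had 57. Genes were named here whatever their rank, and 4 of the 14 were above the median of the set, 53, namely Ctnnb1, Acvr2b, Map2k1 and Supt16.

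Within 10 kb and not at an end, the highest pileups were near Tbx2 (72), a T-box gene, with the midpoint 7.19 kb from its span, Twist1 (67), a transcription factor gene of mesenchyme, at 7.84 kb, Apc (66), whose product degrades β-catenin, at 8.91 kb, Tbx10 (62) at 1.12 kb and Nes (61), a neural progenitor filament gene, at 7.01 kb. Lin28a (59), Wnt3 (58), Foxc2 (58), Smarcd3 (57), Lefty2 (53), Cdh2 (53), which encodes N-cadherin, Chd4 (50), Hes7 (47), Zic1 (43) and Prdm14 (40) also had one. Wnt3, a ligand needed for the primitive streak, had its region 2.74 kb from the span, and Lefty2, an inhibitor of Nodal, at 5.14 kb. These are distances to the nearest edge of the gene, and which gene a distal region acts on is not given by the peak lists.

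The promoters under the regions were CpG-rich, as were those under other EoVP16 peaks. The promoter table gives a window of 300 bases around each start, from 250 before it to 50 after it, and 1466 windows of coding genes lay wholly inside 1220 of the regions. Their median GC content was 61.0% and their median CpG ratio, observed over expected, was 0.779, against 56.3% and 0.567 in all 21237 windows of coding genes. In the 2060 windows inside EoGFP, EoVP16 and EoV5 peaks without BraGFP the medians were 62.0% and 0.769. A CpG ratio of at least 0.6 was found in 81.1% of the windows under the regions (95% Wilson interval 79.0 to 83.0%), in 76.9% of those with EoV5 and in 47.7% of all. Sequence was read in these windows only. Regions with no window inside them, and the bases of a region outside its window, were not searched for motifs.

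The T-box half-site was not common in the promoter windows under the regions. It was found on either strand in 118 of 1466 windows (8.05%, 95% Wilson interval 6.76 to 9.55%), against 11.7% in windows under peaks that also overlapped EoV5, 8.87% under EoGFP, EoVP16 and BraGFP peaks without EoV5 (52 of 586, interval 6.83 to 11.5%), 12.5% under peaks of all 4 lists and 13.2% of all windows. The difference from the windows with EoV5 was -3.70 percentage points (95% Newcombe interval -5.65 to -1.70). The shorter T-box core AGGTG was found in 48.5%, against 53.2% with EoV5 (difference -4.70, interval -8.04 to -1.36), 45.7% with BraGFP and without EoV5, and 51.4% of all windows. The extended site AGGTGTGA, which contains the half-site and the core, was in 8 windows (0.546%). The windows are rich in CpG, and base composition alone changes how often such letters occur. Among windows with a CpG ratio of at least 0.6 alone, a split made after the data were seen, the half-site shares were 7.57% under the regions (interval 6.20 to 9.21%), 9.91% with EoV5, 7.71% with BraGFP and without EoV5, and 8.89% of all such windows, so the share of all CpG-rich windows lay inside the interval.

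ETS letters differed in the other direction. CCGGAAG was found in 368 of 1466 windows (25.1%, interval 22.9 to 27.4%), against 19.2% with EoV5 (difference 5.88 points, interval 3.10 to 8.69), 29.7% with BraGFP and without EoV5 (174 of 586, interval 26.1 to 33.5%), 21.6% in all 4 lists and 11.6% of all windows. Among CpG-rich windows alone the shares were 29.0% under the regions (interval 26.5 to 31.7%), 21.1% with EoV5, 31.6% with BraGFP and without EoV5, and 19.8% of all. Both classes without EoV5 thus had more ETS letters than the class with EoV5 and without BraGFP, so the ETS share was not particular to the 3301 regions. Of 21 mitochondrial ribosomal protein genes with a window inside a region, 7 held the ETS letters, as in the Mrps22 and Mrpl53 promoters printed above, and 0 held the T-box half-site. Of 17 such cytosolic ribosomal protein genes 8 held the ETS letters and 2 the half-site. Only 29 windows held both, and 1009 held neither.

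Several other motifs differed between the regions and all promoters, in part not among CpG-rich windows, and hardly between the regions and promoters with EoV5. Searched on both strands, the letters were GGGCGG for SP/KLF, CCAAT for NFY, GCATGCGC for NRF1, AAGATGGC for YY1, TGACGTCA for CRE, CACGTG for the E-box, TATAAA for the TATA box, ACTACAATT for ZNF143, ATGCAAAT for the octamer, TGTTTAC for forkhead, AATCCACA for FOXH1, CTTTGAT for TCF/LEF and AGATAA for GATA. Of 17 motifs, 1 had an interval of the difference from windows with EoV5 wholly above 0, ETS, and 3 wholly below it, the T-box half-site, the T-box core and forkhead (1.77% against 2.82%). No adjustment was made for the 17 comparisons. Against all windows, which include the windows under the regions, SP/KLF letters were found in 69.3% against 46.2%, YY1 in 5.66% against 3.05%, NRF1 in 5.80% against 3.51% and the TATA box in 6.14% against 12.6%. Among CpG-rich windows alone, NRF1 was found in 6.22% under the regions (interval 4.99 to 7.74%) against 6.38% of all such windows. The TATA box was in 5.89% (interval 4.69 to 7.37%) against 5.58%, so neither differed there. YY1 was in 6.64% (interval 5.36 to 8.20%) against 4.94%. SP/KLF was not split in this way. A match gives the presence of letters in a window and does not show that a factor is bound there.

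**Figure D5:**
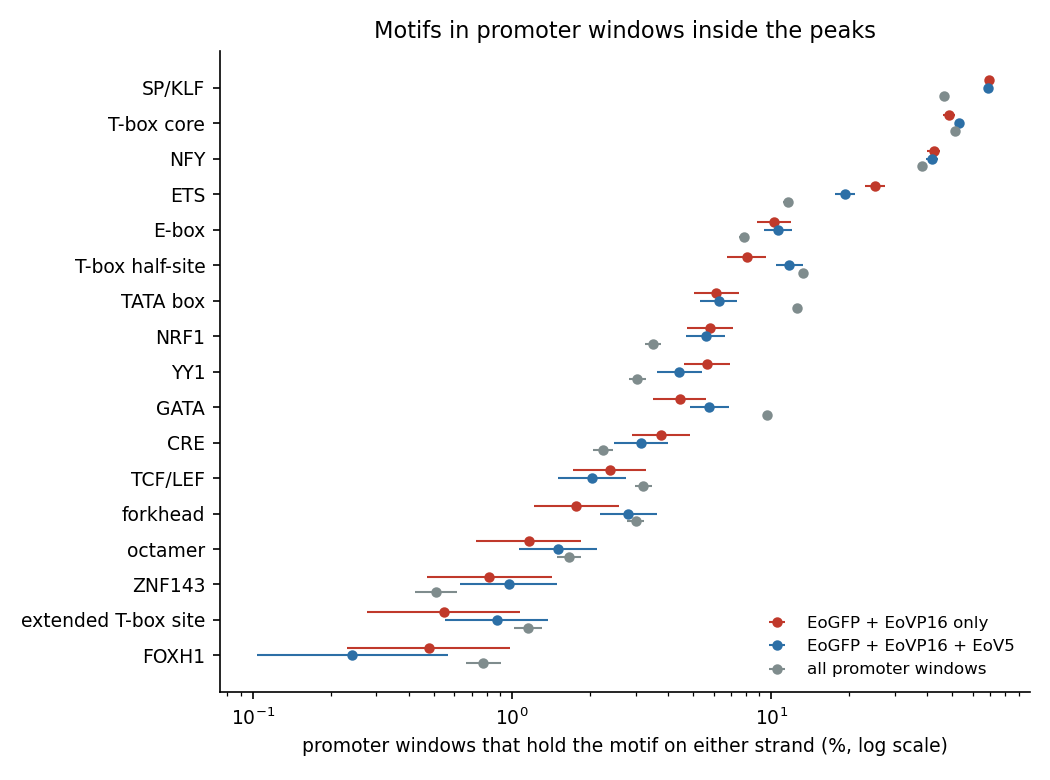
Percent of promoter windows that hold each of 17 motifs on either strand (x axis, log scale), for windows wholly inside the 3301 regions (red), inside EoGFP, EoVP16 and EoV5 peaks without BraGFP (blue) and for all windows of coding genes (grey), with 95% Wilson intervals. ETS stands at 25.1%, 19.2% and 11.6% and the T-box half-site at 8.05%, 11.7% and 13.2%.

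Genes transcribed by RNA polymerase III were also touched, a comparison added after the data were seen. A tRNA gene was overlapped by 22 of 3301 regions (0.666%, 95% Wilson interval 0.441 to 1.01%), covering 31 of 408 tRNA genes in the table. The share was 0.128% in EoGFP, EoVP16 and EoV5 peaks without BraGFP (interval 0.0764 to 0.215%), 1.30% in EoGFP, EoVP16 and BraGFP peaks without EoV5 and 0.777% in peaks of all 4 lists. tRNA genes occur in many near-identical copies, so which copy carries a peak is uncertain. A microRNA gene was overlapped by 9 regions (0.273%) and by 0.293% of peaks that also overlapped EoV5, within the interval of the former (0.144 to 0.517%). Among the 9 was Mir124a-3, a copy of a microRNA of neurons. An annotated long non-coding RNA gene was overlapped by 14.2% and 13.9%, again within the interval (13.0 to 15.4%).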

How the data were processed

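ChIP-seq peak lists of 4 constructs were used, for mouse build mm10/GRCm38. The submitters' processing notes name MACS2 2.1.1.20160309.4, Bowtie2 2.3.4 and bedtools 2.27.0, with no order or settings given. The deposited EoGFP and BraGFP lists, 1 for the 2 libraries each, hold positions only. In the deposited EoV5 and EoVP16 lists, the signal counts fragments piled up over each summit, and the ratio is the fold enrichment over the caller's background, both from the authors. Neither is scaled to depth, and the depth of the libraries is unknown. The labels name lists by minimum pileups of 120 (EoGFP), 40 (BraGFP), 60 (EoV5) and 36 (EoVP16), so the lists differ in stringency.

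Peaks on unplaced contigs (4 to 7 a list) and repeated entries (4 to 46) were left out. Lists were overlapped at 1 bp in Python 3.11 with pandas and scipy, and overlap and interval functions were tested on simulated data. Genes came from a RefSeq table (GRCm38.p6, 21883 coding genes) without strand, and starts from a RefSeq promoter table covering 17491 of them. All symbols of the 33 gene lists were found. The members and lists were chosen with earlier results of these data known, so none is independent evidence. Named genes are those with the highest EoVP16 pileup in each family (3 at an end) and developmental list, the 10 highest, 5 widest and 3 lowest regions, those nearest the EoV5 edge, and the genes with the most regions within 50 kb. Predicted genes were counted and not named, and 1 listed gene is not reported here. There was no test across replicates; shares carry Wilson, differences Newcombe and pileups exact Poisson intervals at 95%. Each region counts as independent in these intervals, although neighbouring regions are not. Alternatives changed 1 choice at a time. The RNA-seq, ATAC-seq, H3K27ac, input and uninduced libraries were not used here.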

Additional observations from a re-analysis of the deposited data

How the results depend on the processing

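The gene-end share of the regions and its differences from other EoGFP peaks kept their direction under each alternative tried. Requiring an EoVP16 pileup of 50 or more left 1980 regions, with 60.5% at gene ends, 31.6 points above EoGFP peaks in no other list, a median width of 942 bp and a median EoVP16 pileup of 59. It lowered the share of mitochondrial ribosomal protein genes from 33.3% to 20.5% and that of all coding genes from 9.47% to 6.35% (1389 of 21883). Counting EoV5 as present only at a pileup of 100 or more gave 7241 regions, with 49.8% at gene ends, 38.3 points above EoGFP, EoVP16 and EoV5 peaks without BraGFP, a median width of 922 bp, a median EoVP16 pileup of 56, an EoV5 peak within 5 kb of 11.5% and 4040 coding genes. The motif differences from peaks with EoV5 then became -7.13 points for the T-box half-site and 9.90 for ETS. Keeping regions with no EoV5 or BraGFP peak within 1 kb moved the share with EoV5 within 5 kb to 17.2%. EoGFP peaks of at least the median width gave 1736 regions, with 71.7% at gene ends, 37.3 points above peaks with EoV5 and 47.1 above peaks in no other list. Allowing 5 kb to a gene end gave 69.1%. A start within 1 kb, chosen after seeing the data, gave 47.4%, 26.7 and 38.3 points. By construction the first 2 of these choices change which peaks count as present, and for the others the cause was not tested. An overlap of 50% with EoVP16 and autosomes alone left every result within its interval or within 1.5 times its count. No paired analysis was possible because each list is a single set of peaks. The files give no depth, no replicate lists and, for EoGFP and BraGFP, no heights, so the error between libraries is unknown, and a region without an EoV5 or BraGFP peak may hold signal under the minimum of that list.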
